A study of Mus musculus with 8 samples.

Results

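The 36 genes described here encode enzymes and adaptors that act after AID, the cytidine deaminase of activated B cells, in antibody gene mutation, DNA repair and class switching. They were taken by symbol from a list of that pathway, and all 36 were found among the 23469 gene symbols of the 2 deposited tables. RNA was sequenced from germinal centre (GC) B cells of C57BL/6 mice, the B220+ cells with high FAS and high GL7, sorted 13 days after mice received NP-KLH, a carrier protein that bears a hapten. Control mice (Ctrl) were CD19cre/+ Irf8+/+ and conditional knockouts (Irf8 cKO) were CD19cre/+ Irf8flox/flox. Both groups therefore carried the same Cre allele, in 1 copy, so the comparison is of the Irf8 genotype and not of Cre. With 1 library of each genotype from each of 2 experiments, n = 2 per group. The 4 samples of cultured B cells in the series were not analysed here.

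AID turns cytosine into uracil in the variable and switch regions of immunoglobulin genes. Base excision enzymes remove the uracil and cut the strand, mismatch repair proteins recognise the mispair and open a gap, and translesion polymerases fill such gaps with errors, which gives somatic hypermutation. In switch regions, nearby cuts on both strands become DNA breaks, which are sensed, marked and joined to a distant break by end joining. The same enzymes serve ordinary DNA repair and replication in every dividing cell, and GC B cells divide fast.

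The values are RPKM as the authors deposited them, which divides reads by transcript length and library total, so levels of different genes can be set side by side. Library totals, estimated from the steps between low values, were 63.0 to 75.8 M reads. Annotated exons held an estimated 9.25 and 7.13 M of these reads in Ctrl 1 and 2, and 8.02 and 4.50 M in libraries labelled cKO 1 and 2. The last library was thus the shallowest over genes. Over the 6446 genes that reached 1 RPKM in 2 libraries or more, the median log2 ratio of Irf8 cKO over Ctrl was -0.35 as deposited, with -0.18 in experiment 1 and -0.51 in experiment 2. Ratios are therefore given as deposited and after scaling by the median of ratios, which brings this shift near 0. They are on the scale of log2(RPKM + 1), which understates the change of low genes. Pairs of values below are in the order of experiment 1, then experiment 2.

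Irf8 itself, the floxed gene, reached 14.5 and 14.9 RPKM in Ctrl and 20.6 and 11.6 in libraries labelled cKO 1 and 2. After scaling Irf8 was higher in both, without overlap, at 11.4 and 13.2 RPKM in Ctrl against 19.4 and 17.8 (log2 ratio 0.56 ± 0.18, limma adjusted p = 0.399). In the authors' deposited table its log2 ratios were 0.717 (p = 0.0237) and 0.366 (p = 0.278). The label was thus not matched by a lower level, and reads over the floxed part alone were not analysed here, so each direction below is that of the libraries as labelled. All 18 GC B cell markers passed the filter, with Bcl6, a master regulator of GC B cells, at 23.4 to 38.7 RPKM. The markers summed to 652 and 595 RPKM in Ctrl against 486 and 334 in libraries labelled cKO. Their median log2 ratio was -0.60 before scaling and -0.09 after. Of the 18, 1 was called lower before scaling and 0 after, against 1.09% and 0.0465% of all genes tested. Without overlap, 12 and 6 were lower, against 44.7% and 15.4% of all genes tested. Fas, used in the sort, and S1pr2, a receptor that confines GC B cells, were among the 6, with scaled ratios of -0.32 and -0.23. The T cell marker Cd3e was listed at 0 in 3 libraries and at 0.0878 RPKM in Ctrl 2, and 5 of 15 T cell markers were listed at 0 in all 4. The 15 summed to 8.39 and 8.31 RPKM in Ctrl against 10.2 and 6.08 in libraries labelled cKO, and 2 passed the filter, with a median scaled ratio of 0.27. The 19 myeloid markers, of which 3 were listed at 0 in all libraries, summed to 93.3 and 20.3 RPKM in Ctrl against 30.8 and 10.0 in libraries labelled cKO. Of the 6 myeloid markers tested, 3 were called lower as deposited and 0 after scaling, against 1.09% and 0.0465% of all genes tested. Their median scaled ratio was -0.94. The part of other cells in the ratios below was not tested. In such bulk samples, fewer cells of a type and less RNA per cell cannot be told apart.

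The mutation and repair genes were expressed over a wide range of levels, with the histone variant H2afx and the sliding clamp Pcna far above the rest. Of the 36 genes, 4 had a Ctrl mean of 10 RPKM or more, 5 lay from 5 to 10, 26 from 1 to 5 and 1 (Smug1) under 1. The median of their Ctrl means was 2.68 RPKM, close to the 2.82 RPKM of all genes tested. The order at the top was H2afx (46.5 ± 17.4 RPKM, mean ± SD, n = 2), Pcna (35.8 ± 13.9), Polh (12.2 ± 2.26), Lig1 (11.2 ± 2.48), Rev3l (8.52 ± 1.28), Msh6 (8.52 ± 0.319) and Xrcc1 (7.82 ± 0.754). The means of H2afx and Pcna did not differ beyond their spread between experiments, nor did those of Polh and Lig1, nor the last 3. Within each library, however, H2afx lay above Pcna, at 58.8 and 34.2 RPKM against 45.7 and 26.0 in Ctrl. Rev3l likewise lay above Xrcc1 in each library. The lowest were Nhej1 (1.33 ± 0.224), Apex2 (1.22 ± 0.161), Exo1 (1.12 ± 0.187), Xrcc4 (1.11 ± 0.277), Polk (1.05 ± 0.210) and Smug1 (0.299 ± 0.00884), of which Smug1 alone lay below the others by more than their spread.

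**Figure D1:**
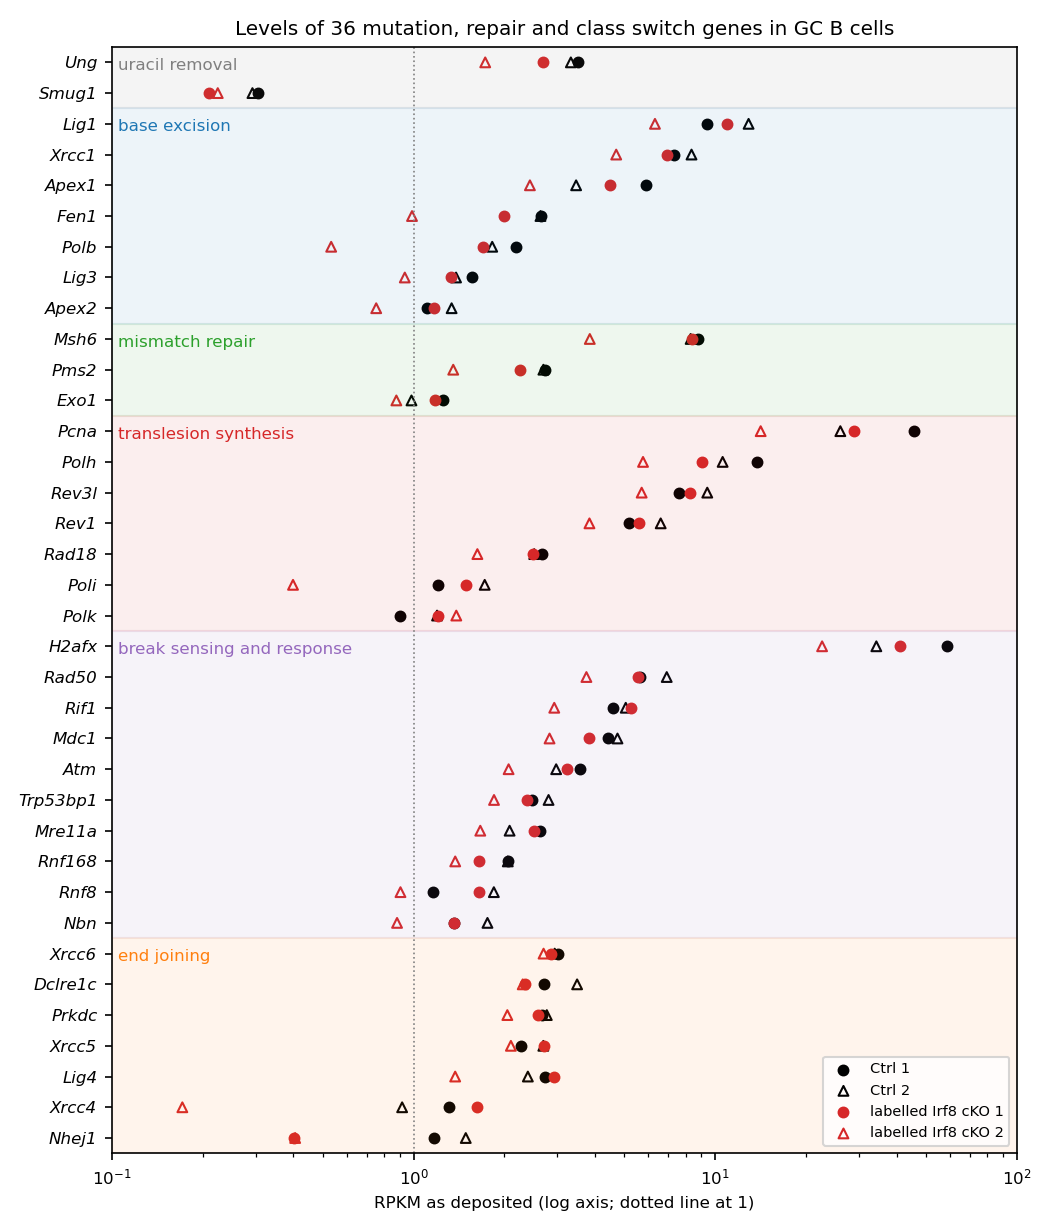
RPKM as deposited (log axis) of the 36 genes in the 4 libraries, grouped by the step they act in; black marks are Ctrl, red marks the libraries labelled Irf8 cKO, circles experiment 1 and triangles experiment 2. H2afx and Pcna lie highest, and the red triangle of the shallowest library is the lowest mark for 33 of the 36 genes.

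Nhej1 fell in libraries labelled cKO in the RPKM as deposited, and no other member passed the test in either direction. It entered the test only through Ctrl, where it reached 1 RPKM, and without that filter its adjusted p (limma) was 0.349. That is 1 of 35 members tested, against 1.09% of all 6446 genes called lower and 0.0931% called higher (limma, Benjamini-Hochberg adjusted p, threshold 0.05). At an unadjusted p under 0.05, 5 members were lower and 0 higher, against 18.6% and 0.264% of all genes. After scaling, 0 members passed, against 0.0465% of genes called lower and 0.0155% higher, and 1 lower member (Nhej1) and 1 higher (Polk) had an unadjusted limma p under 0.05, against 4.58% and 5.94% of all genes.

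Among the 35 tested members, the 2 groups did not overlap for 17 that were lower as deposited and for 1 that was higher (Polk), against 44.7% and 1.19% of all genes. After scaling, 6 members were lower and 9 higher without overlap, against 15.4% and 15.7% of all genes. The share of lower members was near that of genes at large under both scalings. As deposited, 24 of the 35 were lower and 1 higher in both experiments, against 71.2% and 2.75% of all genes. After scaling these were 7 and 15 members, against 27.3% and 30.3%. Smug1, which was not tested, was also lower in both experiments as deposited, without overlap. The 9 higher members without overlap after scaling were Lig3, Exo1, Polk, Rad18, Atm, Mre11a, Rif1, Xrcc5 and Xrcc6. Over the 35 members tested the median log2 ratio was -0.28 as deposited, beside -0.35 over all genes, and 0.07 after scaling, beside 0.0035.

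Uracil is removed by the glycosylases Ung, the main enzyme acting on AID lesions, and Smug1, a minor one. Ung was the more abundant of the pair in these cells. It read 3.50 and 3.32 RPKM for Ctrl, then 2.68 and 1.73 under the cKO label. Both Irf8 cKO values lay below both Ctrl values, as they did after scaling (2.76 and 2.94 against 2.52 and 2.64). On the deposited scale the fitted log2 ratio was -0.48 with an SE of 0.29 (limma adjusted p = 0.312), and -0.10 ± 0.15 once scaled (adjusted p = 0.840). Smug1 was at 0.305 and 0.292 RPKM in Ctrl and at 0.210 and 0.224 in libraries labelled cKO, and lay below the filter. Ung stood at 11.5, 11.4, 12.8 and 7.71 times the level of Smug1 in Ctrl 1, Ctrl 2 and the libraries labelled Irf8 cKO 1 and 2.

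Of the 7 base excision genes downstream of the glycosylases, all were tested and none passed, with adjusted p of 0.232 or more as deposited and 0.589 or more after scaling. Lig1, the replicative DNA ligase, was the most abundant, with 9.41 and 12.9 RPKM for Ctrl, then 11.0 and 6.32 under the cKO label. The highest and the lowest value both came from experiment 2, and the groups overlapped. Xrcc1, the scaffold of single-strand break repair, measured 7.29 and 8.35 RPKM against 6.92 and 4.70. Apex1, the main endonuclease that cuts at the site left by the glycosylase, was at 5.91 and 3.46 RPKM in the Ctrl pair against 4.47 and 2.43 in libraries labelled cKO. Both of its experiment 1 values exceeded the experiment 2 value of the same group, so Apex1 varied as much between experiments as between groups. Scaled ratios were 0.11 for Lig1, 0.06 for Xrcc1 and 0.05 for Apex1.

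Polb and Fen1 were the base excision members with the lowest ratios. Polb, the polymerase that fills a base excision gap, reached 2.19 and 1.82 RPKM in Ctrl and 1.71 and 0.533 in libraries labelled cKO. Most of the difference came from the library labelled cKO 2, where the value stands for an estimated 41 reads. Fitted log2 ratios were -0.56 ± 0.25 before scaling (limma adjusted p = 0.232) and -0.30 ± 0.17 afterwards (adjusted p = 0.589), or -0.07 and -0.53 by experiment. Fen1, the flap endonuclease of long-patch repair and of replication, read 2.65 and 2.64 RPKM for Ctrl, then 2.00 and 0.989 under the cKO label. The Ctrl values were nearly equal, and the groups did not overlap as deposited or after scaling. Its scaled log2 ratio was -0.25 ± 0.16 (adjusted p = 0.611). Lig3, the ligase bound to Xrcc1, and Apex2, a second endonuclease of the Apex family, had scaled ratios of 0.071 and 0.072. Lig3 was lower without overlap as deposited and higher without overlap after scaling.

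None of the 3 mismatch repair members passed. Msh6, the subunit that recognises the uracil-guanine mispair, was the most abundant, with 8.75 and 8.30 RPKM for Ctrl, then 8.35 and 3.84 under the cKO label. Only the library labelled cKO 2 stood apart, and the groups overlapped. The fit put its log2 ratio at -0.50 ± 0.33 with deposited values (limma adjusted p = 0.336) and at -0.06 ± 0.18 once scaled (adjusted p = 0.929). Pms2, the endonuclease subunit, was at 2.73 and 2.70 RPKM in Ctrl against 2.25 and 1.35, lower in both experiments, with a scaled ratio of -0.08 ± 0.15. Exo1, the exonuclease that opens the gap, measured 1.25 and 0.985 RPKM against 1.18 and 0.877. Its 2 groups overlapped as deposited, and after scaling it was higher in both experiments, at 0.21 ± 0.15 (adjusted p = 0.673).

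The translesion polymerases Polh and Polk had scaled ratios of opposite sign, and Polk had the highest scaled ratio of any member. Neither passed the test. Polh encodes DNA polymerase eta, the source of most mutations at A and T bases in antibody genes. It was at 13.8 and 10.6 RPKM in the Ctrl pair against 9.02 and 5.77 in libraries labelled cKO. Its groups did not overlap as deposited or after scaling (10.8 and 9.37 against 8.49 and 8.81). On the deposited scale the fitted log2 ratio was -0.67 ± 0.34 (limma adjusted p = 0.264), and -0.20 ± 0.17 once scaled (adjusted p = 0.711). Polk encodes DNA polymerase kappa, a related enzyme that mainly bypasses bulky lesions. It reached 0.901 and 1.20 RPKM in Ctrl and 1.21 and 1.39 in libraries labelled cKO. It was the only member with both Irf8 cKO values above both Ctrl values as deposited, although Ctrl 2 and the library labelled cKO 1 were nearly equal. Fitted log2 ratios were 0.17 ± 0.23 before scaling (limma adjusted p = 0.616) and 0.46 ± 0.16 afterwards (adjusted p = 0.399), with 0.32 and 0.60 in the experiments.

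Promoter sequence upstream of Polh and Polk is shown. These genes were picked for scaled ratios of opposite sign, which other pairs of translesion members also had. The promoters of Mdc1 and Xrcc6 are added, the only searched members that held the E2F letters described next. The letters come from RefSeq on GRCm38.p6, run 5′ to 3′ on the strand of the gene, and stop at the base before its start or, upstream, at the start of a divergent neighbour. Capitals mark the palindromic site of the factor NRF1 in Polh, and TTTCCCGC or its reverse complement, a site of E2F cell cycle factors, in Mdc1 and Xrcc6. Polk held none of the searched motifs.
Polh, chr17:46202642-46202810, minus strand: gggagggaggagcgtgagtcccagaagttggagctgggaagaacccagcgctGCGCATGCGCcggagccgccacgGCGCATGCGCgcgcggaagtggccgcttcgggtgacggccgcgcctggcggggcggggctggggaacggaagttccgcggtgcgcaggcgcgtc
Polk, chr13:96542580-96542734, minus strand: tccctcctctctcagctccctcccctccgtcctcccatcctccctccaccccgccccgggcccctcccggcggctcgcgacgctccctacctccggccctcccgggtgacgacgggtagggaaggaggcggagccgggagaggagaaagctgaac
Mdc1, chr17:35841248-35841497, plus strand: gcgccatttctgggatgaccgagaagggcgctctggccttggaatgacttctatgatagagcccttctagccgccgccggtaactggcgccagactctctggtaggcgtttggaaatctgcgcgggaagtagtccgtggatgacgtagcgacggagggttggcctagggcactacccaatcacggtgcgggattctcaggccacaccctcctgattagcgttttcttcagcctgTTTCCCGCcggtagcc
Xrcc6, chr15:82016221-82016368, plus strand: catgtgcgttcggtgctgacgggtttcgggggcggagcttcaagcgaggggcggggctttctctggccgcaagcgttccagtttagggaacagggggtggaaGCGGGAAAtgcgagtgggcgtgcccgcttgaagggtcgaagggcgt

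The motifs were chosen after the expression values were seen. The search covered 250 bases before the start on both strands in 23 members, those of the 26 found in the RefSeq promoter table whose start lay within 100 bases of the deposited one. The 2 NRF1 matches of Polh began 117 and 94 bases before its start, and 0.781% of all 27025 promoters held this motif. TTTCCCGC was found in 2 of 23 members, beginning 16 bases before the start of Mdc1 and 46 before that of Xrcc6, and in 0.929% of all promoters. TTTGGCGC, another E2F site, was found in 0 of 23 and in 0.437% of all promoters. The composite ETS-IRF site, which IRF8 binds with an ETS partner, was found in 0 of 23 members and in 2.38% of all promoters. The core of an interferon response site was found in 0 of 23 and in 3.04%. Among the members no match of one motif overlapped that of another. The start of Nhej1 in the promoter table lay 78587 bases from the deposited one, so its promoter was not searched.

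Of the other translesion members, none passed the test. Pcna, the clamp that carries polymerases and is ubiquitinated to call in translesion enzymes, read 45.7 and 26.0 RPKM for Ctrl, then 28.9 and 14.2 under the cKO label. Experiment 1 gave the higher value in each group, and the groups overlapped. The fit put its log2 ratio at -0.74 ± 0.35 with deposited values (limma adjusted p = 0.249) and at -0.24 ± 0.20 once scaled (adjusted p = 0.710). Rad18, the ligase that ubiquitinates Pcna, measured 2.67 and 2.51 RPKM against 2.49 and 1.63, with a scaled ratio of 0.11 in each experiment. Rev3l, the catalytic subunit of polymerase zeta, measured 7.61 and 9.42 RPKM against 8.24 and 5.71, and Rev1, the scaffold for the other translesion enzymes, 5.18 and 6.60 against 5.61 and 3.83. Rev3l and Rev1 thus followed the same order over the 4 libraries, highest in Ctrl 2 and lowest in the library labelled cKO 2. Poli, which encodes polymerase iota, was at 1.20 and 1.72 RPKM in the Ctrl pair against 1.50 and 0.399 in libraries labelled cKO. Its ratio was opposite in the experiments, 0.31 and -0.65 after scaling. In the authors' deposited table, Poli in experiment 2 was the only member with an unadjusted p under 0.05 in either experiment (log2 ratio -1.41, p = 0.0343), beside 2.27% of all genes in that experiment and 2.61% in experiment 1.

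The 10 genes that sense DNA breaks and mark the chromatin around them included none that passed, with adjusted p of 0.328 or more as deposited and 0.637 or more after scaling. H2afx, the histone variant phosphorylated beside breaks, reached 58.8 and 34.2 RPKM in Ctrl and 41.0 and 22.6 in libraries labelled cKO. As for Pcna, experiment 1 gave the higher value in each group, and the groups overlapped. Its scaled ratio was -0.04 ± 0.22, with -0.26 and 0.18 in the experiments. Rad50, the tether of the MRN complex, measured 5.65 and 6.91 RPKM against 5.56 and 3.74. Mre11a, its nuclease, read 2.62 and 2.08 RPKM for Ctrl, then 2.51 and 1.67 under the cKO label, and Nbn, the subunit that binds the kinase ATM, 1.36 and 1.76 against 1.36 and 0.882. Mre11a had the highest scaled ratio of the group, 0.23 ± 0.15 (limma adjusted p = 0.637), and was higher in both experiments.

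Among the kinase and adaptors, Atm, the kinase that signals breaks, was at 3.57 and 2.97 RPKM in the Ctrl pair against 3.24 and 2.07 in libraries labelled cKO. Rif1, which works with the Trp53bp1 product to shield broken ends from resection, measured 4.59 and 5.05 RPKM against 5.28 and 2.93. Trp53bp1, needed for class switching, measured 2.48 and 2.80 RPKM against 2.37 and 1.85. Scaled ratios were 0.14 for Atm, 0.19 for Rif1 and 0.13 for Trp53bp1, each above 0 in both experiments. Mdc1, the adaptor on phosphorylated H2AX, lay at 0.04 after scaling, and Rnf168, a ubiquitin ligase that recruits the Trp53bp1 product, at 0.05. Rnf8, the ligase acting before Rnf168, was opposite in the experiments, with 0.42 and -0.14. After scaling 5 of the 10 were higher in both experiments, 0 were lower in both and 5 differed in sign.

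Within end joining, Nhej1 was lower in libraries labelled cKO and the genes of the Ku heterodimer that binds the broken ends had ratios near 0 as deposited. Nhej1 (chromosome 1, 74967346 to 75046639, minus strand, mm10) encodes XLF, the factor that aligns the ends with the XRCC4 protein for ligation. It reached 1.17 and 1.49 RPKM in Ctrl and 0.402 and 0.405 in libraries labelled cKO, the latter nearly equal. Its log2 ratio was -0.73 ± 0.21 as deposited (limma adjusted p = 0.0468), or -0.63 and -0.83 by experiment. After scaling it was -0.50 ± 0.15 (adjusted p = 0.394), with -0.48 and -0.52, and scaled levels of 0.923 and 1.32 against 0.378 and 0.619 RPKM did not overlap. The values stand for an estimated 90 and 99 reads in Ctrl and 32 and 27 in libraries labelled cKO. Leaving out Ctrl 1, Ctrl 2 or the library labelled cKO 2, as deposited and without the block, gave adjusted p of 0.9997, 0.912 and 0.332 and ratios of -0.83, -0.63 and -0.73, and leaving out the library labelled cKO 1 gave 0.0295. In that last fit, with 1 library labelled cKO left and 1450 genes called lower, 5 members passed (Polb, Fen1, Poli, Xrcc4 and Nhej1).

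Xrcc5 and Xrcc6, the Ku subunits, had the highest scaled ratios of the end joining genes. Xrcc5 read 2.27 and 2.69 RPKM for Ctrl, then 2.70 and 2.10 under the cKO label. Xrcc6 was at 3.02 and 2.94 RPKM in the Ctrl pair against 2.85 and 2.70 in libraries labelled cKO. As deposited their ratios were -0.04 and -0.08, with the values of Xrcc6 within a narrow range in all 4 libraries. After scaling they were 0.33 ± 0.15 (limma adjusted p = 0.483) and 0.32 ± 0.16 (adjusted p = 0.551), without overlap of the groups. Prkdc, the kinase that Ku recruits, measured 2.67 and 2.77 RPKM against 2.59 and 2.05, and Dclre1c, the Artemis nuclease it activates, 2.71 and 3.49 against 2.33 and 2.30. Lig4, the ligase of this pathway, measured 2.73 and 2.39 RPKM against 2.93 and 1.37. Xrcc4, the partner of Lig4, reached 1.31 and 0.917 RPKM in Ctrl and 1.62 and 0.171 in libraries labelled cKO. The Xrcc4 value of the last library stands for an estimated 17 reads, and the scaled ratio was opposite in the experiments, 0.32 and -0.52.

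**Figure D2:**
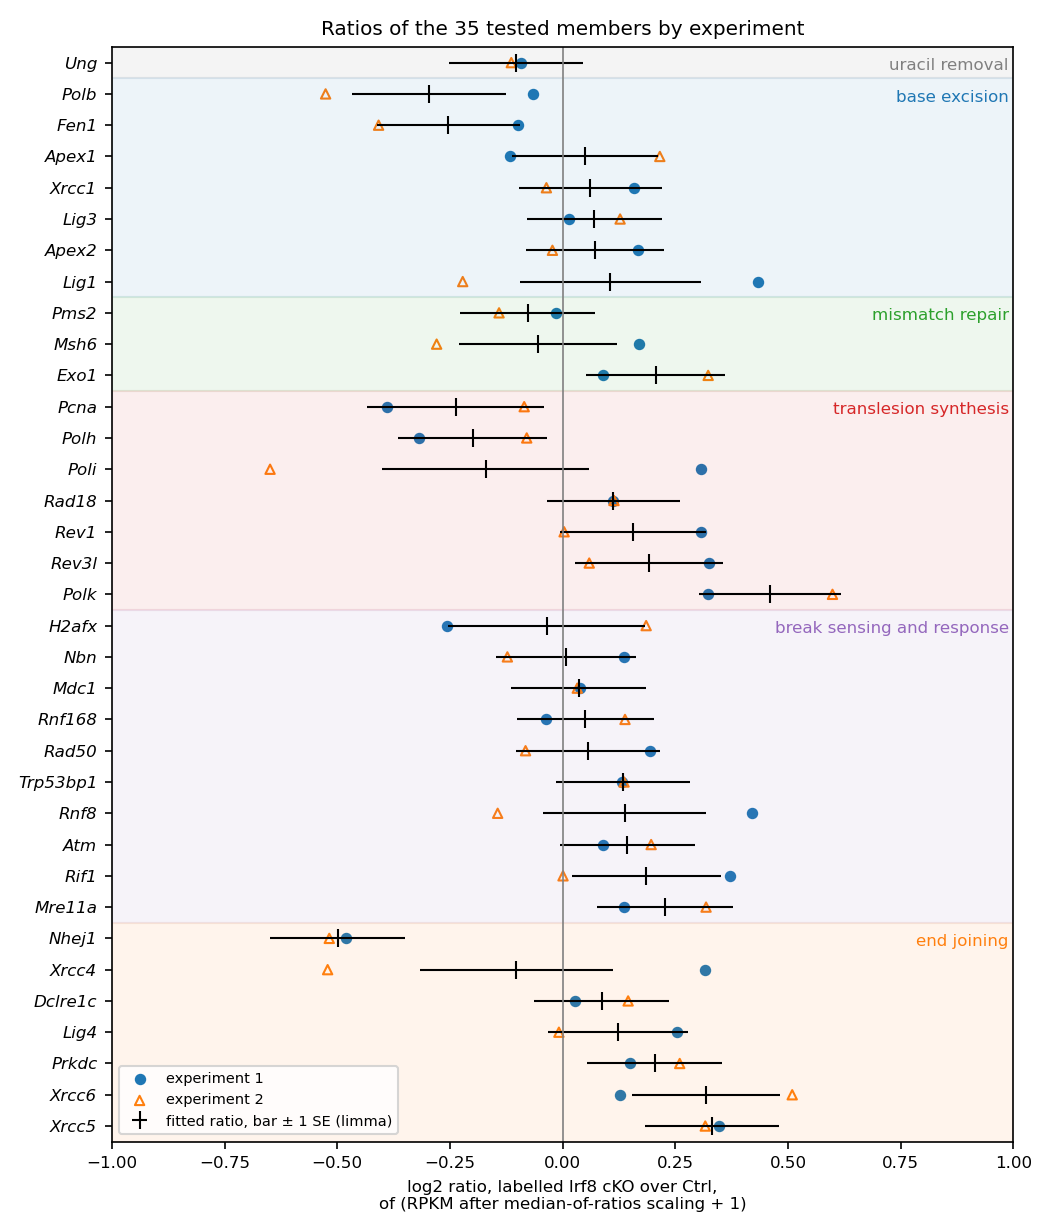
Log2 ratio of Irf8 cKO (as labelled) over Ctrl after median-of-ratios scaling for the 35 tested members; circles are experiment 1, triangles experiment 2, and ticks with bars the fitted ratio ± 1 SE. Nhej1 at -0.50 and Polk at 0.46 lie at the ends with both experiments on 1 side of 0, while Poli and Xrcc4 lie on both sides.

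Set side by side, the arms of the pathway had median ratios within a narrow range. Relative to the median of all genes, the median ratio as deposited was -0.0095 for base excision (7 genes), -0.07 for mismatch repair (3 genes), 0.07 for translesion synthesis (7 genes), 0.09 for break sensing and response (10 genes) and 0.13 for end joining (7 genes). After scaling the same differences were 0.06, -0.06, 0.11, 0.09 and 0.12. Above the median of all genes after scaling lay 5 of 7 base excision, 1 of 3 mismatch repair, 4 of 7 translesion, 9 of 10 break response and 5 of 7 end joining genes, and 24 of all 35. By experiment, the scaled medians were 0.01 and -0.04 for base excision, 0.09 and -0.14 for mismatch repair, 0.31 and 0.0033 for translesion synthesis, 0.13 and 0.08 for break response and 0.15 and 0.15 for end joining. Base excision and mismatch repair had medians below 0 in experiment 2, and the other 3 arms did not. Relative to the median of all genes in experiment 2, translesion synthesis was also slightly lower, at -0.0092. These are descriptions of the genes that passed the filter, and no test was made over an arm.

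Ratios between 2 genes of the same library do not depend on how libraries are scaled. The 20 pairs of members compared were of the same or a related step and were chosen after the values were seen. Not all act together, and Polh and Polk were paired only as translesion polymerases. Of the 20, 3 had lower ratios in both libraries labelled Irf8 cKO than in both Ctrl libraries, 0 had higher ones and 17 overlapped. Of all ordered pairs of tested genes above 0 in every library, 16.1% were lower without overlap and, by symmetry, as many higher, so 3 of 20 is near the share of gene pairs at large. Polh stood at 15.3 and 8.85 times the level of Polk in Ctrl 1 and 2, and at 7.48 and 4.16 times in libraries labelled cKO. That is a log2 change of -1.03 in experiment 1 and -1.09 in experiment 2, although the ratio itself differed between the experiments. Nhej1 stood at 0.429 and 0.622 of the level of Lig4 in Ctrl, and at 0.137 and 0.295 in libraries labelled cKO (log2 changes -1.64 and -1.08). Fen1 stood at 0.282 and 0.204 of the level of Lig1 in Ctrl, and at 0.182 and 0.156 in libraries labelled cKO.

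Of the 17 pairs that overlapped, some kept a steady ratio and others did not. Rev1 stood at 0.680 and 0.701 of the level of Rev3l in Ctrl 1 and 2, and at 0.681 and 0.671 in libraries labelled cKO. Nbn stood at 0.241 and 0.254 of the level of Rad50, and at 0.244 and 0.236. Xrcc5 stood at 0.753 and 0.917 of the level of Xrcc6 in Ctrl 1 and 2, and at 0.947 and 0.779 in libraries labelled cKO, with no common direction. Xrcc4 stood at 0.479 and 0.383 of the level of Lig4 in Ctrl, and at 0.555 and 0.125 in libraries labelled cKO, and Exo1 to Msh6 changed by -0.01 and 0.94 on the log2 scale. With 2 libraries against 2, an exact permutation test cannot go below p = 0.333 two-sided, so none was run on these ratios.

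**Figure D3:**
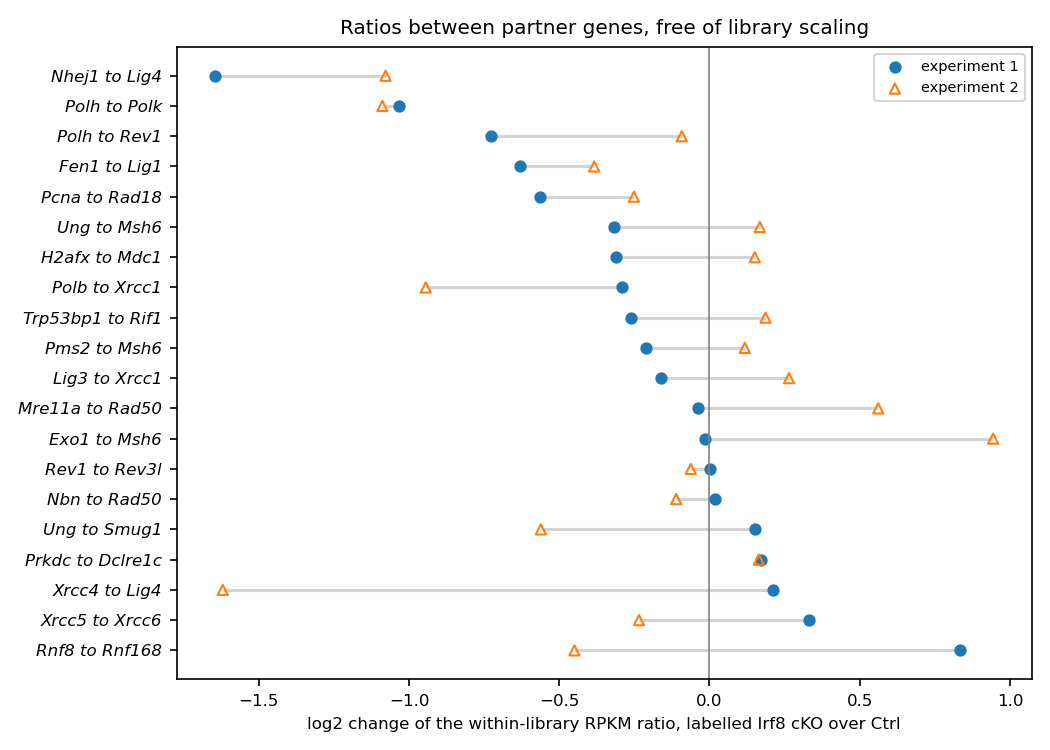
Log2 change of the within-library RPKM ratio of 20 pairs of members of the same or a related step, Irf8 cKO (as labelled) over Ctrl, with circles for experiment 1 and triangles for experiment 2. Nhej1 to Lig4 and Polh to Polk lie below -1 in both experiments, and Rev1 to Rev3l lies near 0 in both.

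The ratios of the members also went with the length of their transcripts. Of the 7 tested members with transcripts under 2000 bases (Apex1, Apex2, Polb, Pcna, H2afx, Xrcc4 and Nhej1), 2 had a scaled ratio above 0 and the median was -0.10. Of the 11 members over 5000 bases, among them Prkdc (12647 bases), Rev3l (10713) and Atm (9787), 10 lay above 0 and the median was 0.14. Over both experiments all genes tested showed the same order with smaller differences, with medians of -0.07 under 2000 bases and 0.07 over 5000. Spearman's rho between length and scaled ratio was 0.534 over the 35 members and 0.211 over 6383 genes, which share the same 4 libraries. By experiment it was 0.378 and 0.317 over the members, and 0.290 and 0.0507 over all genes, so the relation over all genes was weak in experiment 2. With a smooth length trend removed within each experiment, the ratio was -0.43 for Nhej1 (1053 bases), -0.21 for Polh (3238 bases) and 0.43 for Polk (4225 bases). The trend was fitted over all genes, and rho over the 35 members was still 0.222 after its removal. With the trend removed, the arm medians relative to all genes were 0.08 for base excision, -0.09 for mismatch repair, 0.09 for translesion synthesis, 0.03 for break response and 0.08 for end joining, that of break response being 0.09 after scaling alone.

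**Figure D4:**
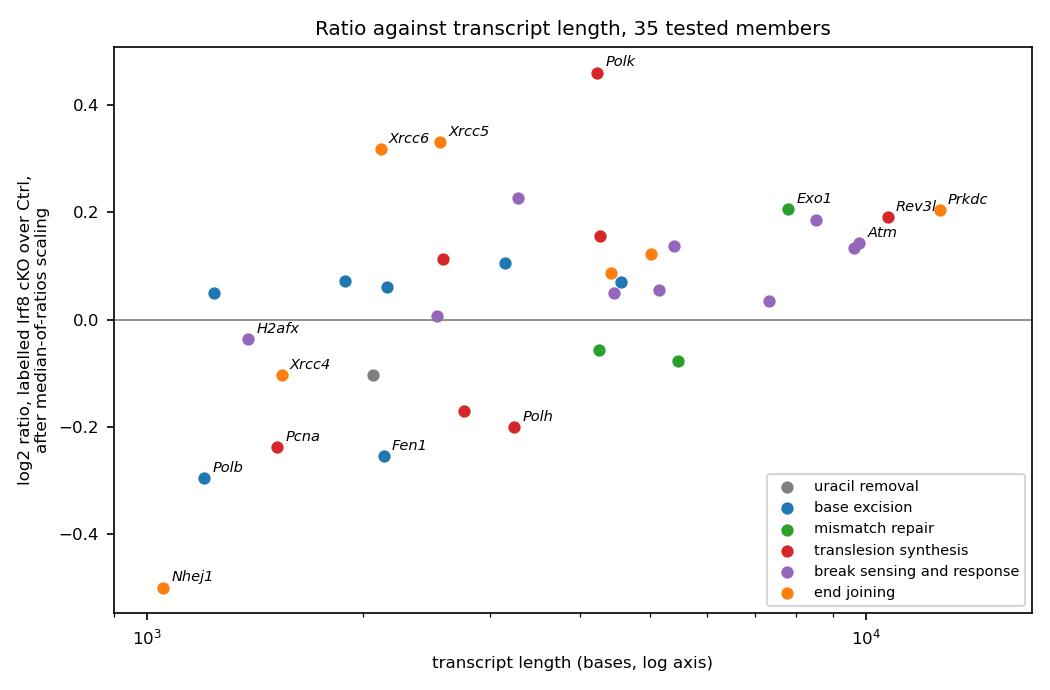
Scaled log2 ratio of Irf8 cKO (as labelled) over Ctrl against transcript length (log axis) for the 35 tested members, coloured by the step they act in. The short transcripts of Nhej1, Polb and Pcna lie below 0, and 10 of the 11 members over 5000 bases lie above 0.

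Of 135 other genes of the pathway, on lists chosen with earlier results of these data known, 106 were tested. None passed as deposited or after scaling. At an unadjusted limma p under 0.05, 19 were lower and 0 higher as deposited, and 3 lower and 12 higher after scaling. The shares over all genes were 18.6% and 0.264% as deposited and 4.58% and 5.94% after scaling. Their ratios had a median of -0.34 as deposited and 0.01 once scaled, close to all genes. Dnaja1, a chaperone that stabilises AID, had the lowest ratio after scaling among cofactors of AID, at 6.71 and 4.79 RPKM in Ctrl 1 and 2 against 3.51 and 1.55. On the deposited scale the fitted log2 ratio was -0.98 (limma adjusted p = 0.072), and -0.59 once scaled (adjusted p = 0.323). Polm, an end joining polymerase, was at 2.43 and 3.46 RPKM in Ctrl against 2.80 and 3.44, with a scaled ratio of 0.47 (adjusted p = 0.399). Pole, the leading strand polymerase, and Atrip, the partner of the kinase ATR, each had a scaled ratio of 0.44. The 13 tested genes of homologous recombination, led by Fanca at 0.47, had a median of 0.25 after scaling and -0.04 as deposited, with 10 above the median of all genes after scaling. Unadjusted limma p under 0.05 held for 3 of these 13, all higher, after scaling, against 5.94% of all genes. Fanca, among these 3, entered the test only through libraries labelled cKO, at 1.25 and 1.10 RPKM against 0.868 and 0.913 in Ctrl.

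Genes of replication and of the GC zones were set beside the members because several members are also replication genes. Of 34 tested S phase genes none passed, and their median ratio after scaling was 9.71e-05. For 25 mitosis genes it was -0.07, for 11 dark zone genes -0.05 and for 11 light zone genes 0.03, with none past the threshold. The dark zone list includes the members Polh and Ung, so it is not separate from them. It also shares Mki67 and Hmmr with the mitosis list. The proliferation marker Mki67 read 70.3 and 76.6 RPKM for Ctrl, then 68.0 and 47.4 under the cKO label, with a scaled ratio of 0.15.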

How the data were processed

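Per the labels' protocols, the small amounts of GC B cell RNA (RNeasy Mini) were amplified (Ovation v2) before Nextera XT library preparation. The authors deposited RPKM by RefSeq gene from Wardrobe, as the series text states, and a log2 ratio and an unadjusted p-value comparing 1 library with 1 library. For the aligner, its name and settings are not given in the sources used here. Tools listed in the submitters' processing notes, without roles, are DESeq, Cuffdiff, Cufflinks 2.2 and TopHat2 2.0, and the builds mm9 and mm10. Deposited starts lay within 100 bases of RefSeq starts on GRCm38 (mm10) for 23 of 26 members looked up. The authors' deposited log2 ratio exceeds that of the RPKM by a median of 0.205 (experiment 1) and 0.721 (experiment 2). This was taken over the 5889 and 4738 genes at 1 RPKM or more in both libraries of the experiment. The excess held to within 0.05 in 97.1% and 96.2% of these genes.

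Of 23471 entries, those sharing a symbol (2 symbols) were summed. Genes reaching 1 RPKM in 2 libraries or more were tested on log2(RPKM + 1) in R 4.3.3 with limma 3.58.1 (eBayes with a variance trend, two-sided, threshold 0.05), with the experiment as a block and Benjamini-Hochberg adjustment. With 1 residual degree of freedom, the prior degrees of freedom were infinite as deposited, so each SE came from genes of similar level and not from the gene's own spread. They were 6.47 after scaling. The block follows the experiment numbers in the labels, and deviations of same-numbered libraries correlated at 0.377. The labels do not say that replicates came from separate animals, so p-values measure only the spread between these samples, which may be technical. The fit was also run on simulated data that held no library-wide shift and no experiment effect. That run therefore cannot show how the fit handles either in these data.

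Transcript lengths came from GENCODE transcripts matched by RefSeq accession (97.6% of entries). Read totals and reads per gene are estimates from these lengths. With them, 70.9% to 73.6% of low values were whole to within 0.1 reads, and no count model was run. Use of strand in counting is not stated, so reads that Apex1, Polb, Lig3, Msh6, Rev1, Trp53bp1 and Dclre1c share with overlapping genes cannot be told apart from their own. Summaries used pandas 2.3.3, numpy 2.4.6 and scipy 1.17.1 in Python 3.11.15, and plots matplotlib 3.10.9.

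The members and lists were chosen with earlier results of these data known. Members named with full values are those past the threshold, the 3 of each arm with the highest mean RPKM and the 2 with the largest scaled ratio of 1 sign in both experiments, and others were added after their values were seen. Of other lists the gene with the largest such ratio is named, and that of other mismatch repair genes is not reported here.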

Additional observations from a re-analysis of the deposited data

How the results depend on the processing

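Relative to the fit as deposited, with 70 genes called lower and 6 higher, median-of-ratios scaling called 3 and 1, scaling to total RPKM 24 and 27, a filter of 5 RPKM 26 and 0, and removal of the length trend after scaling 0 and 0 (unadjusted limma p under 0.05: 453 and 2 with that filter, 278 and 344 without the trend). With no filter, 15557 genes gave 0 and 0 calls (1694 and 292 at an unadjusted p under 0.05). Without the replicate block 19 and 2 genes were called, and 4 and 2 after scaling. Leaving out 1 library gave from 0 to 1450 lower and 0 to 9 higher calls, with the 1450 without the library labelled cKO 1. A fit with 3 libraries assumes that the lone library varies like the others. Of the members, 0 were called in each of the 8 alternatives that keep all libraries, against 1 (Nhej1) in the main setting. At an unadjusted limma p under 0.05, 4 members were lower with a pseudocount of 0.1, against 1069 of 6446 genes. With no filter 3 were lower, against 1694 of 15557 genes. In each of the others 1 was lower, against 151 to 453 genes. No more than 1 member was higher in any alternative, against 2 to 444 genes. With the filter of 5 RPKM 1 other pathway gene was called lower, and leaving out 1 library gave 0 to 20. In each fit that included it the ratio of Nhej1 was below 0, with adjusted p of 0.394 after scaling, 0.285 with total RPKM, 0.178 with a pseudocount of 0.1, 0.318 without the replicate block and 0.480 with the length trend removed. With no filter the arm medians, relative to all genes, were -0.26 for base excision, -0.32 for mismatch repair, -0.17 for translesion synthesis, -0.15 for break sensing and response, -0.12 for end joining. The ratios of the members themselves were the same with and without the filter (Ung -0.48 in both). Only the median of all genes, to which the arms are compared, had moved. Leaving out 1 library moved the arm medians from -0.18 to 0.11 for base excision, -0.13 to 0.12 for mismatch repair, -0.12 to 0.17 for translesion synthesis, -0.0039 to 0.17 for break sensing and response, 0.072 to 0.34 for end joining. Of the tested members, 23 lay below 0 as deposited and above 0 in log2 ratio after median-of-ratios scaling, with or without the replicate block; those named by the rule were Apex1 0.049, Xrcc1 0.062, Lig1 0.11, Exo1 0.21, Rev3l 0.19, Mre11a 0.23, Rad50 0.056, Rif1 0.19, Xrcc5 0.33, Xrcc6 0.32, Prkdc 0.20, Dclre1c 0.087. With total RPKM they read Apex1 0.080, Xrcc1 0.092, Lig1 0.14, Exo1 0.23, Rev3l 0.22, Mre11a 0.25, Rad50 0.085, Rif1 0.21, Xrcc5 0.35, Xrcc6 0.34, Prkdc 0.23, Dclre1c 0.11. With the length trend removed they read Apex1 0.11, Xrcc1 0.078, Lig1 0.097, Exo1 0.12, Rev3l 0.081, Mre11a 0.21, Rad50 0.0060, Rif1 0.093, Xrcc5 0.34, Xrcc6 0.34, Prkdc 0.080, Dclre1c 0.048. H2afx, at -0.04 after scaling alone, read 0.022 with the trend removed. Leaving out 1 library, as deposited or scaled, gave log2 ratios from -0.69 to 0.29 for Apex1, -0.63 to 0.22 for Xrcc1, -0.72 to 0.39 for Lig1, -0.98 to 0.13 for Msh6, -0.17 to 0.28 for Exo1, -0.50 to 0.40 for Rev3l, -1.23 to 0.073 for Pcna, -0.33 to 0.28 for Mre11a, -0.61 to 0.25 for Rad50, -0.96 to 0.26 for H2afx, -0.57 to 0.31 for Rif1, -0.16 to 0.47 for Xrcc5, -0.10 to 0.56 for Xrcc6, -0.29 to 0.34 for Prkdc, -0.44 to 0.34 for Dclre1c. Apart from the shift of the arm medians with no filter, the cause of these changes was not tested. Low read numbers limit Nhej1, Polb, Poli and Xrcc4, whose values in the library labelled cKO 2 stand for an estimated 27, 41, 70 and 17 reads.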

Other observations

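Some of the members start head to head with another gene. Within 1000 bases of the start, on the opposite strand, 10 of 36 members had a divergent neighbour, beside 16.5% of the 6446 genes tested. Polh lay 230 bases from Xpo5, an exporter of small RNA precursors, and Polk 250 bases from Col4a3bp, a ceramide carrier. Prkdc lay 466 bases from Mcm4, a subunit of the replicative helicase, and Atm 376 bases from Npat, a coactivator of histone genes. Of 9 pairs with both genes tested, 6 had scaled ratios of the same sign. Xpo5 stood at 1.54 and 1.44 RPKM in Ctrl and 1.64 and 1.15 under the cKO label, with a scaled ratio of 0.24 (limma adjusted p = 0.613) beside -0.20 for Polh. The ratio for Col4a3bp was 0.011 (adjusted p = 0.986) beside 0.46 for Polk. These pairs were chosen after the values were seen.

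In the authors' deposited table, 22 members had a positive and 14 a negative log2 ratio in experiment 1, and 15 and 21 in experiment 2. The smallest p of a member in experiment 1 was 0.151 in the authors' deposited table.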
